A study of Homo sapiens with 45 samples.

Results

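The genes described here are 10 keratins: KRT7, KRT8, KRT18, KRT19 and KRT80, which are best known from simple or single-layered epithelia or from epithelia more widely, KRT5, KRT6A, KRT15 and KRT17 of stratified epithelia, and the hair keratin KRT81. Members were taken as the probe sets annotated to a single gene symbol among these 10. Such probe sets, 11 in all, existed for 7 of the 10 keratins, and all 7 genes were among the 15599 genes tested out of 19775 with a probe set of 1 symbol. KRT6A, KRT17 and KRT81 are not analysed here. Per the annotation (GRCh38.p14), KRT80, KRT7, KRT5, KRT8 and KRT18 lie on chromosome 12, where KRT80 starts at base 52168996 and KRT18 ends at base 52952906. KRT15 (chr17:41513745-41518890) and KRT19 (chr17:41523617-41528308) are neighbours on chromosome 17.

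The study measured mRNA on arrays in 3 human cancer cell lines, HEY and SKOV3 from the ovary and PC3 from the prostate. Cells of each line received a synthetic miRNA precursor at 33 nM, and RNA was taken 48 h later. The precursor was that of miR-203a, that of miR-205, that of miR-429 or a control that served as the negative one (miR-NC). A further group of each line is labelled untransfected. Each of the 15 groups holds 3 arrays, 45 in all, and nothing in the labels says whether the 3 came from separate cultures, so the tests account for no more than the variation among these arrays, which may be technical.

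Keratins are the intermediate filament proteins of epithelial cells, and a filament needs a type II (basic) partner paired with a type I (acidic) one. KRT8 (type II) and KRT18 (type I) form the primary pair of simple epithelia, and KRT7 (type II) and KRT19 (type I) are added in ductal and glandular epithelia. KRT5 (type II) and KRT15 (type I) belong to the basal layer of stratified epithelia. KRT80 is a type II keratin found near desmosomes, the junctions to which keratin filaments attach. Cells that lose epithelial features commonly carry less keratin and more vimentin, and the miR-200 family and miR-205 are known to repress ZEB1 and ZEB2, transcription factors that silence epithelial genes.

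The 3 transfected miRNAs are shown because they define the groups compared, and the capitals mark the seed, bases 2 to 8, through which a miRNA recognises its targets. The sequences are those of RefSeq on GRCh38.p14, all on the plus strand, at chr14:104117469-104117490, chr1:209432166-209432187 and chr1:1169055-1169076 in the order given. The labels do not name the arm for miR-203a and miR-205, and the arm printed is the one commonly meant. None of the 3 shares its seed with another of the 3, and miR-429 shares its seed with miR-200b-3p and miR-200c-3p of the same family.
hsa-miR-203a-3p: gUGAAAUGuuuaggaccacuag
hsa-miR-205-5p: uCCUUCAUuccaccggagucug
hsa-miR-429: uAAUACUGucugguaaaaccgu

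Levels are the deposited log2 intensities, on which 1 unit is a doubling, and differences are log2 changes. Genes were tested with limma in 1 fit of all 45 arrays with Benjamini-Hochberg adjustment over the 15599 genes, and called at an adjusted p of 0.05 or less. A level under 4.89, the median of all values, is treated as close to the background of the array, and no fold is given against it. Levels of different keratins come from different probes and are not set against each other.

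Some arrays differ in ways that bear on the keratins. The GAPDH 5-prime control probe set, which reads the far end of a transcript in a labelling that starts from the 3-prime end, averaged 8.37 in HEY miR-NC, 13.74 in SKOV3 miR-NC and 5.04 in PC3 miR-NC arrays. Its difference from miR-NC in HEY was 0.58 with miR-203a, 3.92 with miR-205 and -2.11 with miR-429. In PC3 it was 4.95 with miR-203a, 3.66 with miR-205 and -0.50 with miR-429, and in SKOV3 it lay between -0.04 and 0.01. Fits with this level as a covariate estimate its slope only within groups of 3 arrays and extend it over these differences between groups. They cannot separate the control level from the precursor or the line. On arrays labelled untransfected, line markers go against the labels: ERBB2, amplified in SKOV3, averaged 12.31 on arrays labelled HEY and 7.60 on arrays labelled SKOV3, and HOXB13, a prostate gene, averaged 11.73 on arrays labelled SKOV3 and 4.36 on arrays labelled PC3. Those 9 arrays therefore enter no comparison here, although they contribute to the estimate of spread. On transfected PC3 arrays HOXB13 averaged 6.56 with miR-NC and 8.19 with miR-203a, and ERBB2 averaged 6.37 and 7.33. Of 10 blood and stromal markers 6 were tested. PTPRC, CD3E, CD14, VWF and COL3A1 stayed under 4.89 in all transfected group means, while COL1A1 ran between 8.43 and 12.46 and PECAM1 between 3.96 and 9.05. HBB averaged 5.14 in HEY miR-NC arrays and 4.46 in HEY miR-429 arrays. No marker of this list was called higher in any comparison of a miRNA with miR-NC, and up to 5 were called lower (miR-429 in HEY). In that comparison 56.8% of all genes were called, 21% higher and 35.7% lower. The part of these markers in the keratin results was not tested.

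**Figure D1:**
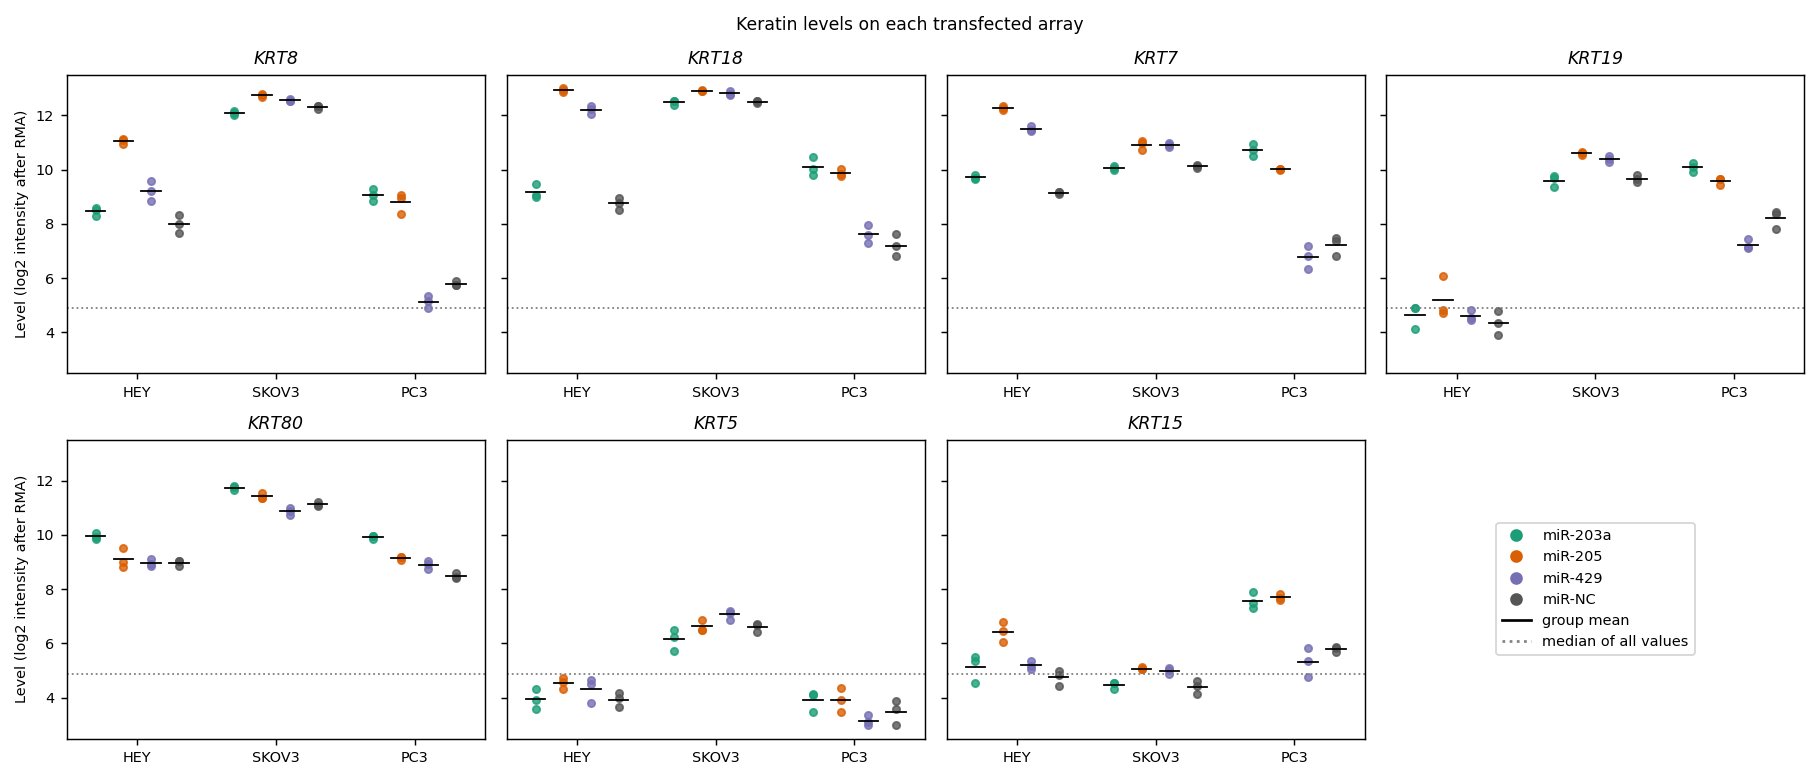
Level (log2 intensity after RMA) of each of the 7 keratins on each of the 36 transfected arrays, by line, with miR-203a, miR-205, miR-429 and miR-NC from left to right within a line. Points are arrays, short bars group means, and the dotted line is the median of all values (4.89); KRT8, KRT18 and KRT7 lie well above miR-NC with miR-205 in HEY and with miR-203a and miR-205 in PC3.

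Under miR-NC the lines differed in which keratins they carried. KRT8 was at 12.22, 12.33 and 12.35 in SKOV3 miR-NC arrays, against 7.67, 8.01 and 8.32 in HEY miR-NC arrays, a difference of 4.30 ± 0.18 (SE, adjusted p = 3.26e-22, 3 arrays each, limma). In PC3 miR-NC arrays it was at 5.74, 5.76 and 5.91, a difference of -6.50 ± 0.18 from SKOV3 (limma adjusted p = 1.20e-27) and of -2.20 ± 0.18 from HEY (limma adjusted p = 2.71e-13). KRT8 thus ran SKOV3, HEY, PC3 from high to low with no overlap, and its partner KRT18 had means of 12.50, 8.76 and 7.20 in that order. The GAPDH 5-prime level ran in the same order, at 13.74, 8.37 and 5.04, so line and control level cannot be told apart here. For KRT18 the step between PC3 and HEY lost its call with the GAPDH 5-prime level as a covariate (-0.51 ± 0.23, limma adjusted p = 0.0846).

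KRT7 had means of 10.12 in SKOV3, 9.15 in HEY and 7.21 in PC3 miR-NC arrays, again in the order of the GAPDH 5-prime level. KRT19, the type I keratin of ducts and glands, ran in another order, SKOV3 (9.67), PC3 (8.20) and HEY (4.35), so HEY arrays held it only near background. KRT5 was above the median of all values in SKOV3 miR-NC arrays alone (6.60, against 3.93 in HEY and 3.49 in PC3). KRT15 was highest in PC3 (5.79) and did not differ by the test between SKOV3 (4.40) and HEY (4.76; limma adjusted p = 0.134). KRT80 was highest in SKOV3 (11.12). PC3 (8.48) and HEY (8.98) did not differ by the test (limma adjusted p = 0.190), although their arrays did not overlap. Without the arrays labelled untransfected, which widen the standard error of KRT80, that difference was called.

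In all, 6 of 7 keratins were called higher in SKOV3 than in HEY miR-NC arrays, where 78.4% of all genes were called, 35% higher and 43.4% lower. Between PC3 and HEY 2 were called higher and 3 lower (56.6% of all genes called, 25.5% higher and 31.1% lower), and between PC3 and SKOV3 1 was called higher and 6 lower (81.2%, 44.2% higher and 36.9% lower). Calls are so common between lines that these counts say little about keratins in particular. With the GAPDH 5-prime level as a covariate only KRT8 and KRT18 stayed called between PC3 and SKOV3, at -4.61 ± 0.67 and -2.56 ± 0.51. For KRT7 the SKOV3 level was higher than HEY only on the brightest of its 4 probe sets, by 0.97 ± 0.19. The other 3 gave -0.33 ± 0.18, -2.08 ± 0.33 and -0.40 ± 0.24 for the same comparison, and the covariate fit of the brightest gave -0.26 ± 0.46.

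In HEY, miR-205 was accompanied by the largest keratin changes of that line, led by KRT18. KRT18 was at 12.87, 12.93 and 13.00 in HEY miR-205 arrays, against 8.51, 8.78 and 8.97 in HEY miR-NC arrays. Every miR-205 array lay far above every control array, and the mean was 18.1-fold higher (4.18 ± 0.17 log2, limma adjusted p = 4.22e-21). KRT8 was at 10.94, 11.09 and 11.13 in HEY miR-205 arrays, against 7.67, 8.01 and 8.32 in HEY miR-NC arrays, again without overlap (3.05 ± 0.18, limma adjusted p = 4.77e-17). KRT7 was at 12.19, 12.27 and 12.36 in HEY miR-205 arrays and at 9.11, 9.16 and 9.18 in HEY miR-NC arrays, an 8.70-fold higher level (3.12 ± 0.19, limma adjusted p = 1.23e-16).

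The other 4 keratins had smaller values in HEY with miR-205. KRT15 was at 6.06, 6.46 and 6.78 in HEY miR-205 arrays, against 4.44, 4.85 and 4.98 in HEY miR-NC arrays, with no overlap (1.68 ± 0.22, limma adjusted p = 2.05e-08). KRT19 was called higher by 0.86 ± 0.25 (limma adjusted p = 0.00282), but its arrays overlapped, since 1 miR-205 array at 6.07 stood above the other two at 4.72 and 4.83. Without miR-205 replicate 1 the KRT19 call was lost (0.42 ± 0.23, limma adjusted p = 0.107). KRT5 was called higher by 0.61 ± 0.26 (limma adjusted p = 0.0386) with both means under the median of all values, and lost the call in 4 of 6 refits that left out 1 array (adjusted p up to 0.161). KRT80 was not called (0.13 ± 0.32). These 6 called keratins of 7 compare with 65.8% of all genes called, 33.6% higher and 32.2% lower, and the median change was 1.68 for the keratins and 0.06 for all genes. The GAPDH 5-prime control also lay 3.92 higher on the miR-205 arrays, and with it as a covariate KRT18 (2.94 ± 0.26), KRT8 (2.20 ± 0.33), KRT7 (2.23 ± 0.35) and KRT15 (1.67 ± 0.46) stayed called, while KRT19 (0.16 ± 0.51) and KRT5 (0.23 ± 0.55) did not. That fit cannot separate the control level from miR-205.

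With miR-429 in HEY 3 of the same keratins were higher. KRT18 was at 12.05, 12.23 and 12.34 in HEY miR-429 arrays, against 8.51, 8.78 and 8.97 in HEY miR-NC arrays, a 10.9-fold higher level (3.45 ± 0.17, limma adjusted p = 1.69e-18). KRT7 was at 11.40, 11.47 and 11.61 in HEY miR-429 arrays and at 9.11, 9.16 and 9.18 in HEY miR-NC arrays (2.35 ± 0.19, limma adjusted p = 5.91e-13). KRT8 was at 8.86, 9.21 and 9.58 in HEY miR-429 arrays and at 7.67, 8.01 and 8.32 in HEY miR-NC arrays (1.22 ± 0.18, limma adjusted p = 2.90e-07). None of the 3 overlapped between groups. The GAPDH 5-prime probe set differed by -2.11 on these arrays, and the ACTB 5-prime one by -0.97. The middle and 3-prime probe sets were higher, by 1.65 and 1.31 for GAPDH and by 1.74 and 0.33 for ACTB. The part of these controls in the result was not tested, since the covariate fit cannot separate the 5-prime level from miR-429.

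The other 4 keratins were not called with miR-429 in HEY, with KRT15 at 0.44 ± 0.22, KRT5 at 0.39 ± 0.26, KRT19 at 0.26 ± 0.25 and KRT80 at -0.02 ± 0.32. Of all genes 56.8% were called, 21% higher and 35.7% lower, and the median over all genes was -0.15, so the keratin median of 0.44 sat above a downward shift. The calls of KRT18, KRT8 and KRT7 held with the 5-prime covariate, at 4.12 ± 0.17, 1.68 ± 0.22 and 2.83 ± 0.24. In these arrays the change of KRT18 was larger than that of its partner KRT8. The changes come from different probe sets, and the difference between them was not tested.

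miR-203a gave small changes in HEY. KRT80 was at 9.87, 9.92 and 10.08 in HEY miR-203a arrays, against 8.85, 9.04 and 9.05 in HEY miR-NC arrays, 1.97-fold higher (0.98 ± 0.32, limma adjusted p = 0.0359). KRT7 was at 9.67, 9.71 and 9.80 in HEY miR-203a arrays and at 9.11, 9.16 and 9.18 in HEY miR-NC arrays (0.57 ± 0.19, limma adjusted p = 0.0344). Neither overlapped, and the 2 calls of 7 compare with 13.2% of all genes, 5.82% higher and 7.33% lower. KRT18 (0.41 ± 0.17, limma adjusted p = 0.101) and KRT8 (0.46 ± 0.18, limma adjusted p = 0.0818) were not called. Both calls were lost in each of the 6 refits that left out 1 array, where the adjusted p was 0.0690 to 0.118 for KRT80 and 0.0669 to 0.112 for KRT7. In a fit of HEY alone the adjusted p was 0.320 for KRT80 and 0.0635 for KRT7. That fit and the refits keep the arrays labelled untransfected HEY, where KRT80 had an SD of 1.52. In the fit of all lines without the untransfected arrays both calls were kept.

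**Figure D2:**
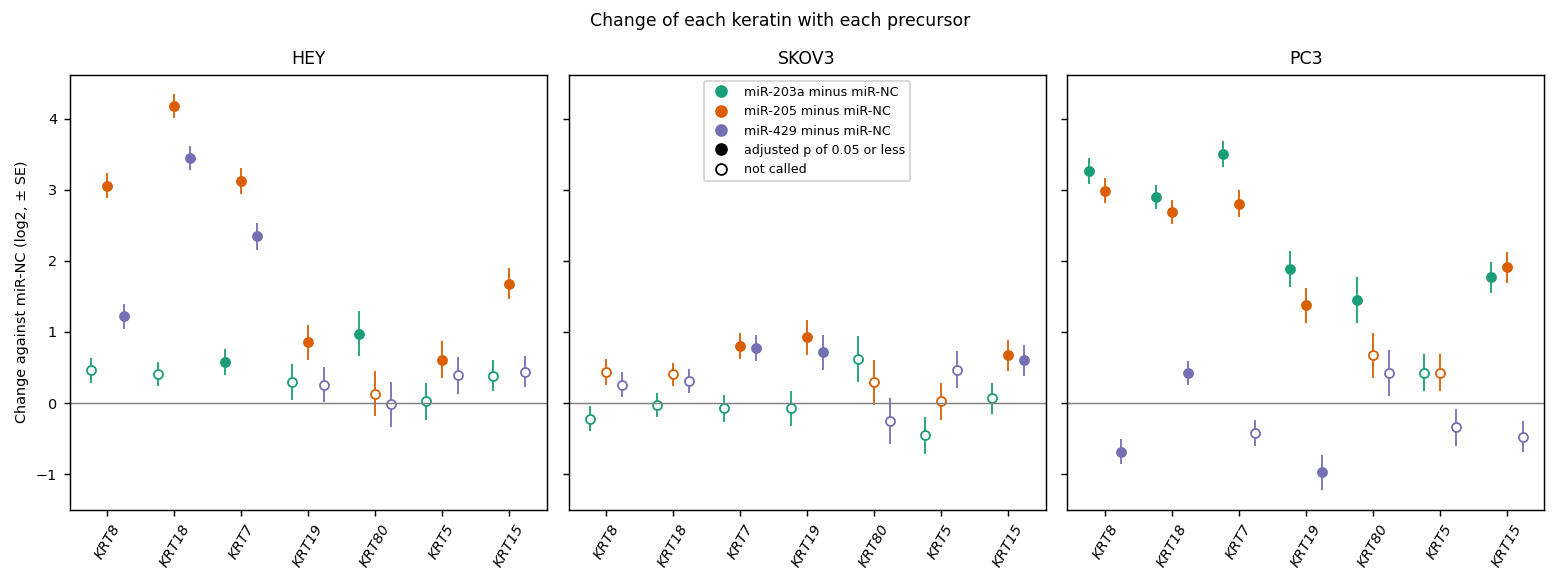
Change of each keratin against miR-NC of its own line (log2, points) with its standard error (bars), in HEY, SKOV3 and PC3, for miR-203a, miR-205 and miR-429 from left to right. Filled points were called at an adjusted p of 0.05 or less; the changes in SKOV3 stayed between -0.45 and 0.92, while KRT18 reached 4.18 in HEY and KRT7 3.50 in PC3.

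In SKOV3, the line with the highest KRT8 and KRT18 under miR-NC, the changes were under 1 log2 unit. KRT19 was at 10.54, 10.60 and 10.64 in SKOV3 miR-205 arrays, against 9.56, 9.64 and 9.82 in SKOV3 miR-NC arrays, 1.90-fold higher (0.92 ± 0.25, limma adjusted p = 0.00479). With miR-429 it was at 10.28, 10.38 and 10.49, also above every miR-NC array (0.71 ± 0.25, limma adjusted p = 0.0346, and 0.0851 after quantile normalization). KRT15 was called with both miRNAs, by 0.67 ± 0.22 with miR-205 and 0.60 ± 0.22 with miR-429, from a miR-NC level under the median of all values. With miR-429 the calls of KRT19 and of KRT15 were each lost in 5 of 6 refits that left out 1 array (adjusted p up to 0.110 and 0.198). With miR-205 KRT15 lost its call without miR-NC replicate 3 (0.117) or miR-205 replicate 3 (0.0588). With 3 keratins called higher in each comparison, the background for miR-205 was 25.6% of all genes called, 16.8% higher and 8.81% lower. For miR-429 it was 22.1%, 14.9% higher and 7.18% lower.

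KRT7 was at 10.71, 11.00 and 11.06 in SKOV3 miR-205 arrays and at 10.82, 10.89 and 10.98 in SKOV3 miR-429 arrays, against 10.06, 10.13 and 10.16 in SKOV3 miR-NC arrays. All 6 miRNA arrays were above the 3 control arrays on this probe set (0.80 ± 0.19 and 0.78 ± 0.19, limma adjusted p = 0.00113 and 0.00187). The second brightest probe set of the same gene gave -0.32 ± 0.18 and -0.15 ± 0.18, and neither was called, so the direction for KRT7 in SKOV3 holds for its brightest probe set and not for every probe set.

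KRT8 and KRT18 stood a little above the controls in SKOV3 with miR-205 and did not pass the test. KRT8 was at 12.69, 12.76 and 12.77 in SKOV3 miR-205 arrays, against 12.22, 12.33 and 12.35 in SKOV3 miR-NC arrays (0.44 ± 0.18, limma adjusted p = 0.0652). KRT18 was at 12.89, 12.90 and 12.93 in SKOV3 miR-205 arrays and at 12.47, 12.51 and 12.53 in SKOV3 miR-NC arrays (0.40 ± 0.17, limma adjusted p = 0.0723). Neither overlapped, and in a fit of SKOV3 alone both were called (adjusted p = 0.00487 and 0.00149, limma). GAPDH and ACTB 5-prime probe sets lay between -0.04 and 0.01 of miR-NC in this line.

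With miR-203a in SKOV3 0 of 7 keratins were called by limma, and 11.9% of all genes were, 7.06% higher and 4.88% lower. At an unadjusted p under 0.05 the keratin count was also 0, and it was 1 without the untransfected arrays and in a fit of SKOV3 alone. KRT80 was at 11.64, 11.78 and 11.82 in SKOV3 miR-203a arrays, against 11.08, 11.09 and 11.20 in SKOV3 miR-NC arrays, without overlap (0.62 ± 0.32, limma adjusted p = 0.264). Its shared standard error is widened by the arrays labelled untransfected HEY, where KRT80 had an SD of 1.52. Without the 9 untransfected arrays the same difference had an SE of 0.12 and an adjusted p of 4.48e-04 (limma). The other 6 keratins differed from miR-NC by -0.45 to 0.07.

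In PC3, the line with the lowest KRT8, KRT18 and KRT7 under miR-NC, both miR-203a and miR-205 were accompanied by higher levels of 5 keratins or more. KRT7 was at 10.49, 10.71 and 10.94 in PC3 miR-203a arrays and at 9.99, 10.01 and 10.04 in PC3 miR-205 arrays, against 6.80, 7.36 and 7.46 in PC3 miR-NC arrays. KRT8 was at 8.83, 9.07 and 9.29 in PC3 miR-203a arrays and at 8.36, 8.95 and 9.06 in PC3 miR-205 arrays, against 5.74, 5.76 and 5.91 in PC3 miR-NC arrays. KRT18 was at 9.81, 10.02 and 10.46 in PC3 miR-203a arrays and at 9.78, 9.86 and 10.00 in PC3 miR-205 arrays, against 6.80, 7.17 and 7.62 in PC3 miR-NC arrays. Each miRNA array was above each control array for all 3 genes.

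With miR-203a the change in PC3 was 3.50 ± 0.19 for KRT7 (11.3-fold, limma adjusted p = 4.43e-17), 3.26 ± 0.18 for KRT8 (9.60-fold, 5.49e-17) and 2.90 ± 0.17 for KRT18 (7.47-fold, 2.42e-16). With miR-205 it was 2.99 ± 0.18 for KRT8, 2.80 ± 0.19 for KRT7 and 2.68 ± 0.17 for KRT18. KRT19 was also higher, by 1.88 ± 0.25 with miR-203a and 1.37 ± 0.25 with miR-205, as was KRT15, by 1.77 ± 0.22 and 1.91 ± 0.22. KRT5 stayed under the median of all values in every PC3 group and was not called.

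KRT80 was at 9.87, 9.96 and 9.98 in PC3 miR-203a arrays and at 9.08, 9.19 and 9.19 in PC3 miR-205 arrays, against 8.42, 8.44 and 8.59 in PC3 miR-NC arrays. No group overlapped another, with 1.45 ± 0.32 for miR-203a (limma adjusted p = 2.11e-04) and 0.67 ± 0.32 for miR-205 (limma adjusted p = 0.0814, and 3.92e-05 without the untransfected arrays). With miR-203a the difference of KRT80 from miR-NC was 0.98, 0.62 and 1.45 in HEY, SKOV3 and PC3. The 0.62 was not called in the fit of all arrays. The HEY call was lost in each of 6 refits that left out 1 array, and the PC3 call with the GAPDH 5-prime covariate.

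The 6 keratins called higher with miR-203a in PC3 compare with 56.1% of all genes called, 31.1% higher and 25% lower. The 5 called with miR-205 compare with 48.4%, 28.7% higher and 19.7% lower. The median change was 1.88 for keratins and 0.06 for all genes with miR-203a, and 1.91 and 0.05 with miR-205. The same arrays carried more GAPDH 5-prime signal, by 4.95 and 3.66. With that level as a covariate the miR-203a change was 2.37 ± 0.43 for KRT7, 2.19 ± 0.40 for KRT8, 1.34 ± 0.31 for KRT18 and 1.76 ± 0.56 for KRT15, all still called by limma. KRT19 (1.00 ± 0.61) and KRT80 (1.51 ± 0.82) lost their calls, and with miR-205 KRT19 did (0.72 ± 0.48). The control level and the precursor cannot be separated by this fit.

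**Figure D3:**
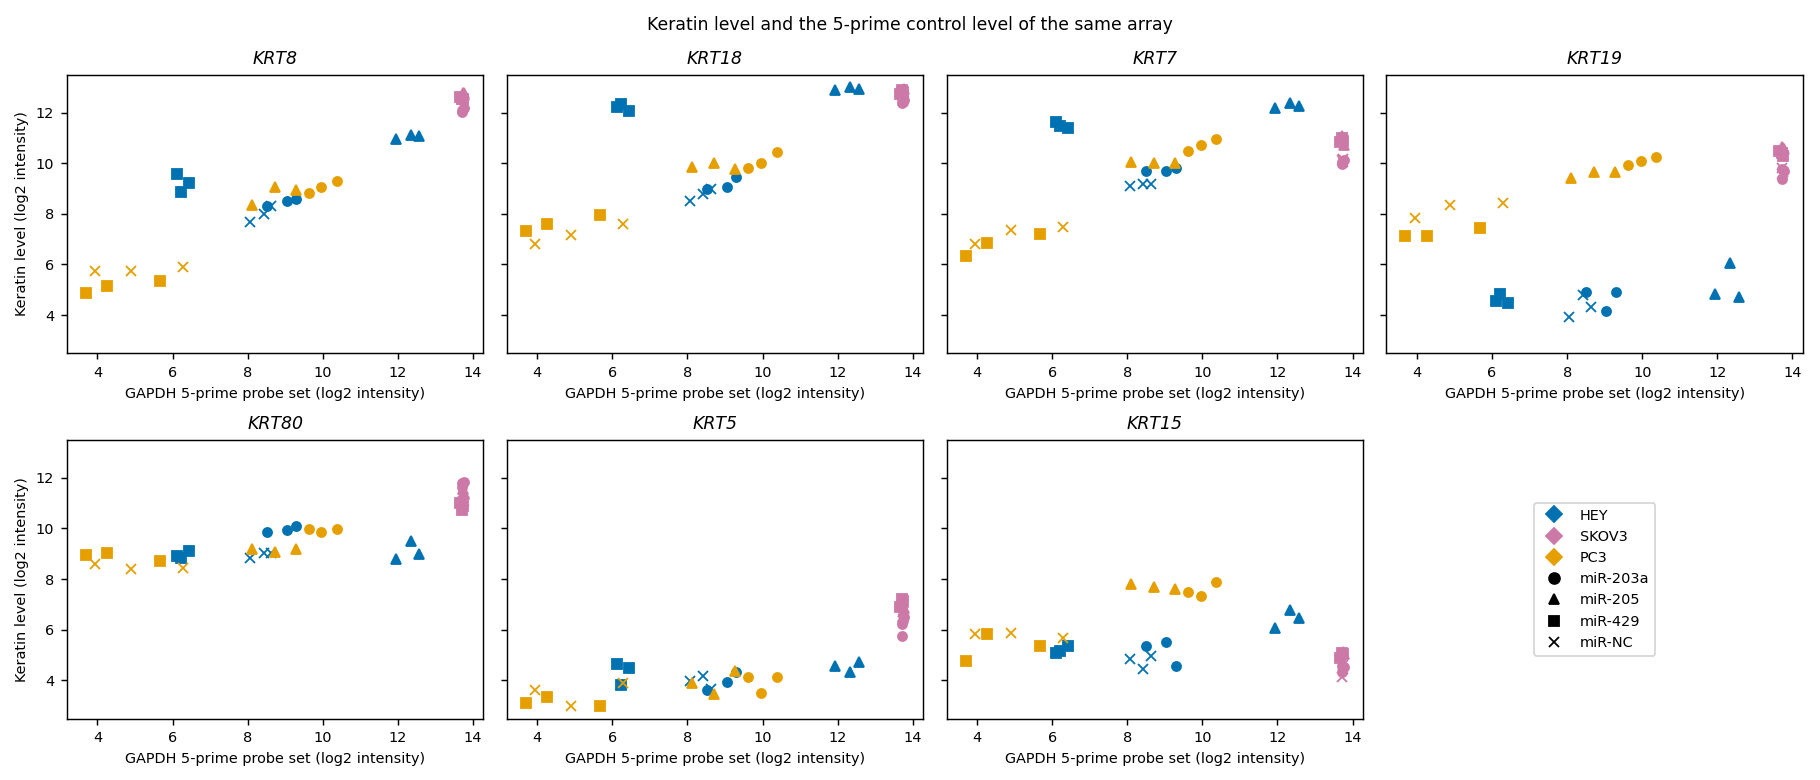
Level of each keratin (log2 intensity) against the level of the GAPDH 5-prime control probe set on the same array (log2 intensity), for the 36 transfected arrays, with colour for the line and shape for the precursor. HEY miR-429 arrays (blue squares) combine a low GAPDH 5-prime level with high KRT18 and KRT7, whereas in PC3 (orange) the miR-203a and miR-205 arrays are high on both axes.

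miR-429 in PC3 gave calls in both directions. KRT19 was at 7.11, 7.14 and 7.44 in PC3 miR-429 arrays, against 7.83, 8.35 and 8.43 in PC3 miR-NC arrays, 1.96-fold lower (-0.97 ± 0.25, limma adjusted p = 0.00168). KRT8 was at 4.89, 5.15 and 5.33 in PC3 miR-429 arrays, against 5.74, 5.76 and 5.91 in PC3 miR-NC arrays (-0.68 ± 0.18, limma adjusted p = 0.00188). The arrays of both genes were apart, but the KRT8 call was lost after quantile normalization (-0.27 ± 0.17) and after subtracting array medians (-0.27 ± 0.18), and the median change of all genes was -0.13. Array medians were 4.49, 4.51 and 4.51 in PC3 miR-429 arrays, the lowest of all arrays, against 4.89, 4.91 and 4.93 in PC3 miR-NC arrays. The KRT19 call was kept under both of these settings.

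KRT18 went the other way from its partner, at 7.31, 7.59 and 7.96 in PC3 miR-429 arrays and at 6.80, 7.17 and 7.62 in PC3 miR-NC arrays. Its arrays overlapped, and the call (0.43 ± 0.17, limma adjusted p = 0.0347) was lost in a fit of PC3 alone (adjusted p = 0.107) and in 4 of 6 refits that left out 1 array, at 0.23 ± 0.17 without miR-NC replicate 1. The 1 higher and 2 lower calls compare with 46% of all genes called, 16.3% higher and 29.7% lower. Without the untransfected arrays 5 keratins were called, KRT80 higher (0.42 ± 0.12) and KRT7 lower (-0.42 ± 0.15) in addition. That KRT7 value is of its brightest probe set. The other 3 gave 0.31 ± 0.18, 0.90 ± 0.33 and 0.36 ± 0.24 in the fit of all probe sets, where 44.3% were called, and the 0.90 was called higher (limma adjusted p = 0.0229). All 3 had both means under the median of all values, and their arrays overlapped between groups.

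Set directly against each other in PC3, miR-203a and miR-205 differed in 1 keratin by the brightest probe set of each gene. Of all genes 24.8% were called, 11.9% higher and 12.9% lower. KRT7 was 0.70 ± 0.19 higher with miR-203a than with miR-205 (limma adjusted p = 0.00500), with no overlap. The call was lost with the 5-prime covariate (0.41 ± 0.20), the control itself being higher with miR-203a. KRT80 was 0.78 ± 0.32 higher without overlap (limma adjusted p = 0.0721, and 1.55e-05 without the untransfected arrays). KRT19 was 0.51 ± 0.25 higher without overlap and was not called (limma adjusted p = 0.137). Its second probe set was called higher by 1.02 ± 0.19, also without overlap (limma adjusted p = 9.64e-05). That value is from the fit of all probe sets, where 21.3% were called. KRT8 (0.28 ± 0.18), KRT18 (0.22 ± 0.17) and KRT15 (-0.14 ± 0.22) overlapped between these groups.

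Whether the change differed between lines was tested for each miRNA with a moderated F-test. For miR-203a 5 of 7 keratins differed, against 44.9% of all genes, and each of the 5 (KRT7, KRT8, KRT15, KRT18 and KRT19) had its largest change in PC3. With the GAPDH 5-prime covariate 3 did (KRT7, KRT8 and KRT18). The KRT7 change was 2.93 ± 0.26 larger in PC3 than in HEY and 3.58 ± 0.26 larger than in SKOV3. For miR-205 4 of 7 differed, against 69.6% of all genes. The KRT18 change differed from that in HEY by -3.77 ± 0.23 in SKOV3 and by -1.49 ± 0.23 in PC3. It was thus largest in HEY. Under miR-NC KRT18 averaged 12.50 in SKOV3, 8.76 in HEY and 7.20 in PC3. With miR-205 the GAPDH 5-prime control differed from miR-NC by 3.92 in HEY, 3.66 in PC3 and 0.01 in SKOV3. KRT8 changes with miR-205 in PC3 and HEY were not told apart by the test (-0.07 ± 0.25, limma adjusted p = 0.853).

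For miR-429 5 of 7 keratins differed between lines, against 66.5% of all genes. KRT18 responded less in both SKOV3 (-3.14 ± 0.23) and PC3 (-3.02 ± 0.23) than in HEY, and those 2 responses were not told apart by the test (0.12 ± 0.23, limma adjusted p = 0.758). KRT19 responded differently in PC3 from SKOV3 (-1.69 ± 0.35) and from HEY (-1.23 ± 0.35). KRT80 and KRT5 were not called as differing between lines for any of the 3 miRNAs. For KRT80 the standard error of each line difference was 0.45, widened by the arrays labelled untransfected HEY (SD 1.52). These tests could therefore miss KRT80 differences between lines. All these responses share the miR-NC arrays of their line, and they cannot be separated from the GAPDH 5-prime differences between the lines.

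**Figure D4:**
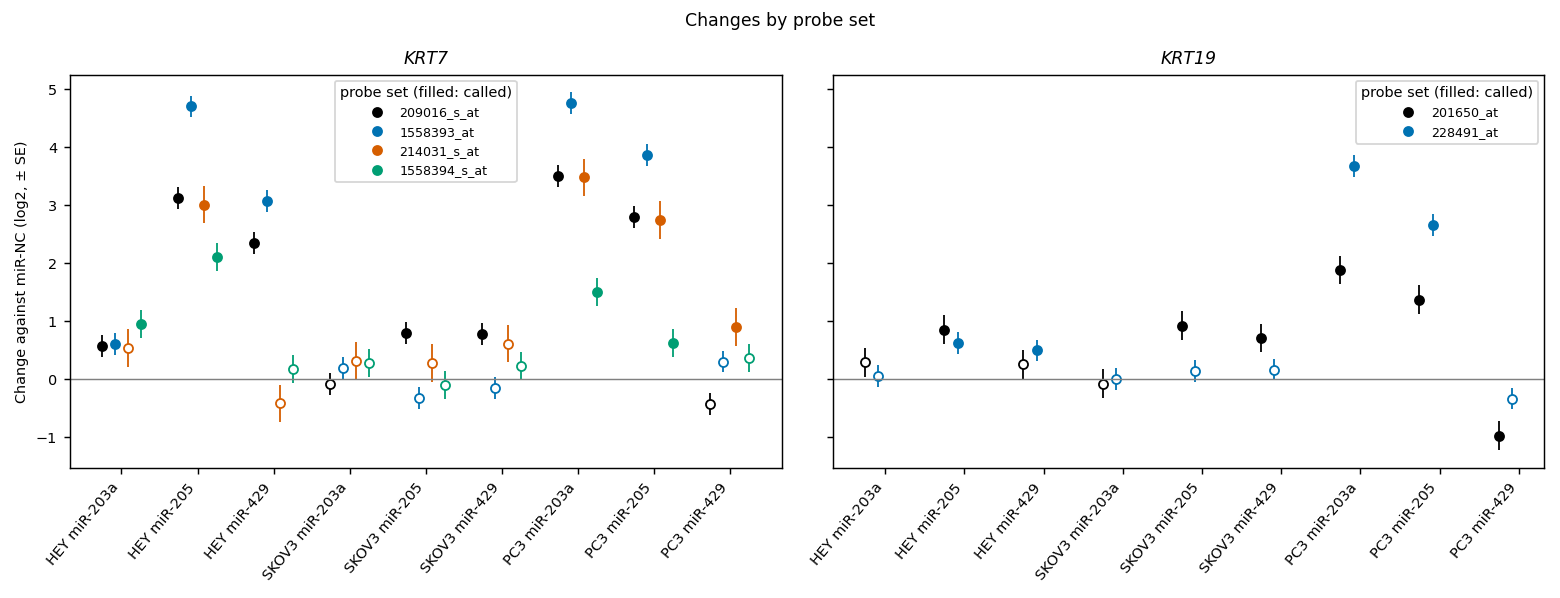
Change against miR-NC (log2, points, with standard errors as bars) for each probe set of KRT7 and of KRT19 in the 9 comparisons, with filled points for calls. The 4 KRT7 probe sets lie on the same side of 0 with miR-203a and miR-205 in HEY and in PC3. They lie on both sides with miR-429 in HEY and PC3 and with each miRNA in SKOV3.

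KRT7 and KRT19 have more than 1 probe set, fitted together with all 31147 probe sets that passed the same filter on low values. With miR-205 in HEY all 4 KRT7 probe sets were called higher, by 2.12 to 4.71, where 64.8% of all probe sets were called. With miR-203a in PC3 they were called higher by 1.51 to 4.77 (54.8% of probe sets called), and with miR-205 in PC3 by 0.62 to 3.87 (46.7%). In PC3 the miR-NC means of all but the brightest lay under the median of all values. The 0.62 is of a probe set whose means were both under it and whose arrays overlapped. With miR-429 in HEY (57.7% called) the 2 brightest were higher, by 2.35 and 3.08, but the other two (-0.41 ± 0.33 and 0.18 ± 0.24) were not called. The second KRT19 probe set was 3.68 ± 0.19 higher with miR-203a and 2.67 ± 0.19 higher with miR-205 in PC3, in the direction of the brighter one, from a PC3 miR-NC mean of 3.47 that lay under the median of all values. In SKOV3 it stayed under the median of all values and was not called with either miR-205 (0.14 ± 0.19, 22.2% of probe sets called) or miR-429 (0.17 ± 0.19, 18.9% called). KRT8 and KRT18 each rest on 1 probe set of a kind (_x_at) that may also bind related sequences.

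Over the 12 transfected group means the spread of KRT8 was the widest, 7.62 log2 units between SKOV3 miR-205 and PC3 miR-429, against a median within-group SD of 0.12. KRT18 spanned 5.74, KRT19 6.25, KRT7 5.49, KRT5 3.92, KRT15 3.30 and KRT80 3.26. KRT8 and KRT18 ran most alike among the keratin pairs (Pearson r = 0.94 over the 12 means), followed by KRT8 and KRT5 (0.92), while KRT15 ran against KRT5 (-0.49) and KRT7 was unrelated to KRT19 (0.02). These points share 3 lines and the 5-prime differences, so the values are descriptions. By the same measure the nearest genes were CLIC1 (0.996) and PSMD8 (0.99) for KRT18, LGALS1 and SCAMP2 (0.99 each) for KRT8, ROMO1 and ATOX1 (0.98 each) for KRT7, and CLDN4 (0.99) and PRAME (0.98) for KRT19. For KRT5 they were LINC01134 and LOC151760 (0.99 each), for KRT15 HSBP1L1 (0.96) and ARID3B (0.95), and for KRT80 TSPAN18 (0.97) and CNR2 (0.96).

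Of 24 genes that regulate keratin or epithelial genes, 21 were tested. With miR-205 in HEY 1 was called higher and 13 lower, where 65.8% of all genes were called, and with miR-429 in HEY 6 higher and 8 lower, where 56.8% were. ZEB1, a repressor of epithelial genes, averaged 9.33 in HEY miR-429 arrays and 11.55 in HEY miR-NC arrays (-2.22 ± 0.13, limma adjusted p = 3.33e-16), and ZEB2 averaged 7.05 in HEY miR-429 arrays and 9.57 in HEY miR-NC arrays (-2.52 ± 0.14, limma adjusted p = 1.24e-16). ZEB1 was also lower with miR-205 in HEY (-1.81 ± 0.13), with miR-205 and miR-429 in SKOV3 (-1.37 ± 0.13 and -2.15 ± 0.13), and in PC3 with miR-203a (-1.28 ± 0.13), miR-205 (-0.98 ± 0.13) and miR-429 (-0.62 ± 0.13). GRHL2, an activator of epithelial genes, was 2.06 ± 0.15 higher with miR-429 in PC3. KLF5, a transcription factor of epithelial cells, was 2.09 ± 0.19 higher with miR-205 in SKOV3.

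Of 15 proteins that link keratin filaments to junctions or other filaments, all tested, 4 were called higher and 5 lower with miR-205 in HEY (65.8% of all genes called), and 8 higher and 0 lower with miR-429 in SKOV3 (22.1% called). Plakophilin 3 (PKP3), a desmosomal plaque protein, was higher by 2.99 ± 0.19 with miR-205 in HEY, and PLEC, which cross-links filaments, by 2.55 ± 0.24. Epiplakin (EPPK1), which binds keratins, was lower in HEY with all 3 miRNAs, at -2.48 ± 0.18 with miR-203a, -3.90 ± 0.18 with miR-205 and -3.76 ± 0.18 with miR-429. In SKOV3 EPPK1 was higher with miR-205 (1.62 ± 0.18) and miR-429 (2.07 ± 0.18), from a miR-NC level under the median of all values. PKP1, another plakophilin, was 2.82 ± 0.20 higher with miR-203a in PC3.

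Among 13 tested intermediate filament genes other than keratins, 6 were called higher and 2 lower with miR-205 in HEY (65.8% of all genes called), and 7 higher and 1 lower with miR-203a in PC3 (56.1% called). Vimentin (VIM), the filament of mesenchymal cells and named here after its values were seen, was higher in the groups with higher KRT8 and KRT18, by 1.36 ± 0.14 with miR-205 and 1.47 ± 0.14 with miR-429 in HEY, and by 1.69 ± 0.14 with miR-203a and 0.85 ± 0.14 with miR-205 in PC3. It was also 0.52 ± 0.14 higher with miR-203a in HEY. Lamin A/C (LMNA), of the nuclear envelope, was 3.25 ± 0.20 higher with miR-205 in HEY, and nestin (NES) 1.95 ± 0.23 higher with miR-203a in PC3. SYNM was lower with miR-429 in HEY, at -2.00 ± 0.14, and SYNC was lower with miR-205 in HEY, at -1.90 ± 0.23. The GAPDH 3-prime control was also higher in the groups with higher KRT8 and KRT18, by 1.48 and 1.31 with miR-205 and miR-429 in HEY and by 2.01 and 1.82 with miR-203a and miR-205 in PC3, and its part in the keratin results was not tested.

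Of 10 other type II keratins tested out of 20, 4 were called higher and 0 lower with miR-205 in HEY (65.8% of all genes called), and 2 higher and 2 lower with miR-429 in HEY (56.8%). In PC3, 2 were called higher and 0 lower with miR-203a (56.1%), 2 higher and 1 lower with miR-205 (48.4%) and 1 higher and 2 lower with miR-429 (46%), and in the other comparisons at most 1 was called. KRT75 was 1.53 ± 0.21 higher with miR-205 in PC3. Of 7 other type I keratins tested out of 25, 3 were called higher and 0 lower with miR-205 in HEY (65.8% of all genes called). With miR-429, 2 were called higher and 1 lower in HEY (56.8%) and 0 higher and 3 lower in PC3 (46%). At most 2 were called in each of the other comparisons. KRT10 was lower with miR-429 in PC3 (-1.34 ± 0.10, limma adjusted p = 3.84e-12). KRT14, the usual partner of KRT5, was lower in SKOV3 with miR-203a (-1.17 ± 0.22), miR-205 (-0.91 ± 0.22) and miR-429 (-0.76 ± 0.22) and higher in PC3 with miR-203a (1.17 ± 0.22) and miR-205 (1.21 ± 0.22), where its means stayed under the median of all values. Of 8 tested genes of stratified and cornifying epithelium, 5 were called higher and 1 lower with miR-205 in HEY (65.8% of all genes called), among them IVL (2.48 ± 0.30, with a miR-NC mean under the median of all values) and SPRR1A (0.69 ± 0.17), and with miR-203a in PC3 1 was called higher and 1 lower (56.1% called), with SFN at 1.28 ± 0.13.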

How the data were processed

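Expression was measured on 45 1-colour arrays, 3 for each of 15 groups of HEY, SKOV3 and PC3 cells. The deposited values are log2 intensities of 54675 probe sets that the authors had summarised with RMA, per the submitters' processing notes, whose version is not given in the sources used here. RNA was amplified from the 3-prime end and labelled with biotin, per the labels' protocols, so signal from the 5-prime end of a transcript depends on RNA length. Array medians ran from 4.49 to 4.98, and the 3 PC3 miR-429 arrays had the lowest. With 3 arrays a group, precision is limited by their number.

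Of the probe sets 41091 carry 1 gene symbol, 1801 several and 11783 none. For 41043 annotations with 1 symbol the Entrez identifier was found in RefSeq, and the RefSeq symbol was used, whether or not it differed. Each gene was represented by its brightest probe set, and genes entered if 1 group mean exceeded 4.89, which left 15599. limma (3.58.1, R 4.3.3) fitted 15 group means, with Benjamini-Hochberg adjustment and a threshold of 0.05. A second fit held 31147 probe sets. Differences between lines were tested with limma's moderated F-test. Figures and sequence tables used Python 3.11.15, pandas 2.3.3, numpy 2.4.6 and matplotlib 3.10.9. On simulated data for miR-203a against miR-NC in HEY (15599 genes), 83 of 100 genes changed by 1 log2 unit and 100 of 100 changed by 2 were recovered, with 9 unchanged genes called.

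The keratins and the gene lists were chosen with earlier results of these data known. Every keratin was named, with up to 4 called genes of largest change from each list, genes with both means above 4.89 first, and the 2 genes most correlated with each keratin. Alternatives were the averaging of probe sets, leaving out probe sets ending in _x_at or _s_at, quantile normalization, subtracting array medians, other filters, fits without the untransfected arrays or per line, a replicate block, an intensity trend and leaving out each array. The GAPDH 5-prime covariate was added after the data were seen. KRT6A, KRT17 and KRT81 are not analysed here.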

Additional observations from a re-analysis of the deposited data

Results flagged for a closer look

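The response to a miRNA differed between the 3 lines for several keratins by limma's F-test with Benjamini-Hochberg adjustment over all genes. With miR-203a the adjusted p was 6.79e-13 for KRT8, 1.18e-12 for KRT7, 4.15e-12 for KRT18, 4.10e-05 for KRT19 and 4.78e-05 for KRT15. KRT8 changed by 3.26 in PC3, -0.22 in SKOV3 and 0.46 in HEY. With miR-205 the adjusted p was 8.16e-15 for KRT18, 8.81e-12 for KRT8, 1.67e-09 for KRT7 and 0.00138 for KRT15. With miR-429 it was 1.14e-13 for KRT18, 4.43e-10 for KRT7, 2.91e-07 for KRT8, 2.61e-04 for KRT19 and 0.00543 for KRT15. KRT18 changed by 0.43 in PC3, 0.31 in SKOV3 and 3.45 in HEY with miR-429.

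On the arrays labelled untransfected, which enter no comparison, several keratins lay above every miR-NC array of the labelled line. On those labelled HEY the means were 6.80 for KRT5, 9.63 for KRT7, 10.79 for KRT8, 11.66 for KRT18 and 10.86 for KRT19, the last against 4.35 in HEY miR-NC arrays. On those labelled SKOV3 KRT15 averaged 7.65 and KRT19 11.81. On those labelled PC3 KRT7 averaged 10.97, KRT8 10.93 and KRT18 12.14, while KRT19 averaged 4.12 against 8.20 in PC3 miR-NC arrays. These differences were not tested, since ERBB2 and HOXB13 go against the labels of these arrays.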

How the results depend on the processing

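Of 91 keratin changes 50 were called, of which 29 kept their call under all settings and 42 in all refits that left out 1 array. Of 941 alternative values 880 kept direction and side of the threshold, 28 gained a call, 27 lost one and 6 reversed. Counts out of 7 called keratins that changed by more than 1.5 times, or to or from 0, are given here, and counts within 1.5 times are not listed. For miR-203a in HEY the count was 0 with the GAPDH 5-prime covariate and 0 in a fit per line. For miR-203a in SKOV3 it was 1 without the untransfected arrays and 1 per line. For miR-205 in SKOV3 it was 5 after subtracting array medians, 5 with an intensity trend, 5 with the covariate and 6 per line, and for miR-429 in SKOV3 1 with averaged probe sets. For miR-429 in PC3 it was 5 without the untransfected arrays. For miR-203a against miR-205 in PC3 it was 2 with averaged probe sets, 2 without the untransfected arrays, 3 per line and 0 with the covariate. Between PC3 and SKOV3 miR-NC arrays it was 2 with the covariate, and the count of keratins whose miR-203a response differed between lines was 3.

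Leaving out probe sets ending in _x_at or _s_at, which takes out KRT8 and KRT18 and leaves 5 keratins, gave 1 call for miR-429 in HEY, 3 for miR-205 in PC3, 1 for miR-429 in PC3, and 3 each between SKOV3 or PC3 and HEY miR-NC arrays. The counts of line differences were then 3, 2 and 3 for the 3 miRNAs. KRT7 reversed there, at -0.32 for miR-205 in SKOV3, -0.15 for miR-429 in SKOV3 and -0.33 between SKOV3 and HEY miR-NC arrays. The last was -0.46 with averaged probe sets and -0.26 with the covariate, and KRT19 between PC3 and SKOV3 miR-NC arrays was 0.087 with the covariate.

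Leaving out 1 array gave 0 to 1 called keratins for miR-203a, 5 to 6 for miR-205 and 3 to 3 for miR-429 in HEY. In SKOV3 it gave 0 to 0 for miR-203a, 2 to 3 for miR-205 and 1 to 2 for miR-429, and in PC3 6 to 6, 5 to 5 and 2 to 3, with 1 to 1 for miR-203a against miR-205. Between miR-NC arrays it gave 6 to 6 for SKOV3 against HEY, 5 to 5 for PC3 against HEY and 7 to 7 for PC3 against SKOV3. Line differences ran 5 to 5, 4 to 5 and 5 to 6 for miR-203a, miR-205 and miR-429.

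Replicate numbers did not pair the arrays, with correlations from -0.15 to 0.13 over 27 pairs, 2 of them above 0.1. The replicate block changed 1 count, that of miR-429 in SKOV3 to 2, where KRT15 (0.60) had an adjusted p of 0.0511 (limma). A fit per line cannot compare lines. KRT5 in HEY and PC3, KRT15 in HEY and SKOV3 and KRT19 in HEY lay near background, which limits their folds.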
